A study of Mus musculus with 12 samples.

Results

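The 40 genes described here encode the matrix metalloproteases (MMPs), the ADAM and ADAMTS proteases, their inhibitors and activators. They are all genes among the 11015 on the table whose symbol starts with Mmp and a digit, with Adam, or with Timp and a digit, together with Reck, Bsg and Furin. They comprise 9 MMP genes, 12 ADAM genes, 9 ADAMTS genes, 4 ADAMTS-like genes, the inhibitor genes Timp1, Timp2, Timp3 and Reck, and Bsg and Furin. RefSeq lists 89 protein-coding mouse genes under the same rule, and the other members of these families were not analysed here. Each gene was read from its brightest probe set. The rule takes genes by symbol, and it was set with earlier results of these data known.

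RNA of cultured endothelial cells from the aorta of mice aged 4 weeks was hybridised to Affymetrix expression arrays. The question was what loss of the transcription factors Ets1 and Ets2, alone or together, does to these cells. Wild-type cells (Ets1+/+; Ets2+/+) and Ets1 null cells (Ets1-/-; Ets2fl/fl) had received a lentivirus with egfp. Ets2 null cells (Ets1+/+; Ets2fl/fl) and cells labelled Ets1/2 null (Ets1-/-; Ets2fl/fl) had received a lentivirus with egfp-Cre, the recombinase that deletes floxed alleles. All cells had thus been infected, Cre and Ets2 loss went together, and every null group carried floxed Ets2 alleles that wild type lacked. There were 3 arrays each of wild type, Ets1 null and Ets2 null. Of the 3 columns labelled Ets1/2 null, the third equalled the mean of the other two in 99.9903% of probe sets (within 1e-06) and was left out, so that group had 2 arrays. The labels call the arrays biological replicates without naming animals, so p-values measure the spread between these arrays.

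MMPs are zinc proteases that cut collagens, proteoglycans and other matrix proteins, and they are made as inactive precursors. ADAMs are membrane-bound relatives that release the outer parts of cell-surface proteins such as Notch receptors, cadherins and growth factor precursors, while ADAMTS proteases are secreted and cut matrix proteoglycans. TIMPs and Reck inhibit them, Furin cuts the precursors of several membrane-type MMPs and ADAMs, and Bsg, also named EMMPRIN, induces MMP production. Several MMP promoters are textbook targets of ETS factors acting beside AP-1 sites.

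Values are log2 signals after the median over all genes was subtracted from each array, called centred values. A value of 0 is thus the array's median gene, and a difference of 1 is a doubling. The centring matters because the deposited median over genes was 9.37 to 9.50 in 9 arrays and 8.73 and 8.69 for the arrays labelled Ets1/2 null. The threshold for calling a gene was an adjusted p under 0.05 (limma, with Benjamini-Hochberg adjustment over all genes), and errors of differences are standard errors (SE). Ets1 itself read -1.16, -0.70 and -0.32 for Ets1 null, below 0.89, 0.41 and 0.56 for wild type, but 1.29 and 1.60 for the arrays labelled Ets1/2 null, which goes against their Ets1-/- genotype. Ets2 read 0.22, -0.05 and 0.68 for Ets2 null and 0.35, 0.58 and 1.21 for wild type (-0.43 ± 0.35, limma adjusted p = 0.544), and 2.28 and 0.94 for the arrays labelled Ets1/2 null. In these, Ets1 was above Ets1 null by 2.17 (adjusted p = 0.000713), and against Ets2 null both Ets1 (1.22, adjusted p = 0.0079) and Ets2 (1.33, adjusted p = 0.0325) were higher. Neither signal thus bears out the labelled double loss, and directions below are those of the arrays so labelled. Eif2s3y, a Y-linked gene, was high in 4 arrays, the 3 of Ets2 null and the first of wild type, and low in the other 7. Sex and the Ets2 null label thus moved together in part. Of 21 endothelial markers 7 were on the table, with array medians from -1.82 to -0.01 and log2 sums from 1.20 to 4.01. Among them Kdr lay between -2.45 and -1.77, while Cd34 reached 3.30, Plvap 2.54 and Eng 1.43 in single arrays. Fibroblast markers (11 of 14) had array medians from -2.87 to 1.95 and log2 sums from 5.71 to 7.15; Col1a1 reached 4.58, while Lum lay between -4.53 and -2.46. Leukocyte markers (6 of 15) had array medians from -2.41 to -1.92, with Cd14 reaching 1.49. Of the epithelial and mesothelial markers (4 of 9), Krt19 and Msln varied most. Epcam lay between -1.15 and 0.21 and Krt8 between -2.69 and -1.63 over all arrays. The log2 sums of the 4 were 4.37 to 4.92 for Ets1 null, 0.49 to 3.20 for wild type, 1.93 to 3.40 for Ets2 null, and 2.59 and 4.95 for the arrays labelled Ets1/2 null. The mesothelial gene Msln lay between 0.44 and 0.90 across Ets1 null and between -4.98 and -4.48 across Ets2 null. It read -4.31, -3.53 and 0.59 for wild type, and 1.15 and -1.87 for the arrays labelled Ets1/2 null. The part of these cell types in the results was not tested. In bulk RNA, fewer cells of a type and less RNA per cell cannot be told apart.

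Promoter sequence was found in RefSeq (GRCm38.p6) for 25 of the 40 genes, in 29 windows, and the 250 bases before the start were searched on both strands. The ETS core AGGAAG was present for 9 genes (Adam10, Adam17, Adam19, Adamts12, Furin, Mmp14, Mmp3, Timp1 and Timp3) and in 29.5% of all 32851 windows of that length. The ETS core CCGGAA was present for Adam15 and Adam17, against 12% of all windows. The AP-1 motif TGANTCA, which reads alike on both strands, was present for Adam19, Mmp10 and Mmp3, against 6.75%. A TATAAA box was present for Adamts1, Adamtsl2, Furin, Mmp10 and Mmp3, against 12.4%. The motifs do not overlap in the windows printed. The windows of 3 genes are shown because the values below turn on them. Adam23 was called in a single null, Mmp3 had the widest range over the arrays, and Adam17 was called in every comparison of the arrays labelled Ets1/2 null. Motif letters are in capitals.
Adam23, chr1:63445641-63445890, plus strand: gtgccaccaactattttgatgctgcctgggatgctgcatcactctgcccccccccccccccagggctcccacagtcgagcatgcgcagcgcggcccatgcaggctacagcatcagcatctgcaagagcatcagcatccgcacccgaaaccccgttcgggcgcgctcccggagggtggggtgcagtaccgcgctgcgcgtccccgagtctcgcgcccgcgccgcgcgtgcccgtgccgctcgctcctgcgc
Mmp3, chr9:7445572-7445821, plus strand: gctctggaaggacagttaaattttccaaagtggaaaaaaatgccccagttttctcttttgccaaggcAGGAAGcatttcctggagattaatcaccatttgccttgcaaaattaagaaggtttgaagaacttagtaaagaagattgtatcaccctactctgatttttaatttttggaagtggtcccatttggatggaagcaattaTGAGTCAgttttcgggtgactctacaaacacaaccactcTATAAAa
Adam17, chr12:21373633-21373882, minus strand: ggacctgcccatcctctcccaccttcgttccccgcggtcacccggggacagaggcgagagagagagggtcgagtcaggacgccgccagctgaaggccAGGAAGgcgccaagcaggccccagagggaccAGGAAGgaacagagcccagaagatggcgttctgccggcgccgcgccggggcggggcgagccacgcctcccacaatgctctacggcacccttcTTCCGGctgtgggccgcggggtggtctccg
In the Mmp3 window the AGGAAG core lay 183 to 178 bases, the AP-1 motif 46 to 40 bases and the TATAAA box 7 to 2 bases before the annotated start. The Adam17 window held AGGAAG at 153 to 148 and 122 to 117 bases and CCGGAA, on the opposite strand, at 30 to 25 bases before it. The Adam23 window, with 70.4% G and C, holds none of these letters.

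**Figure D1:**
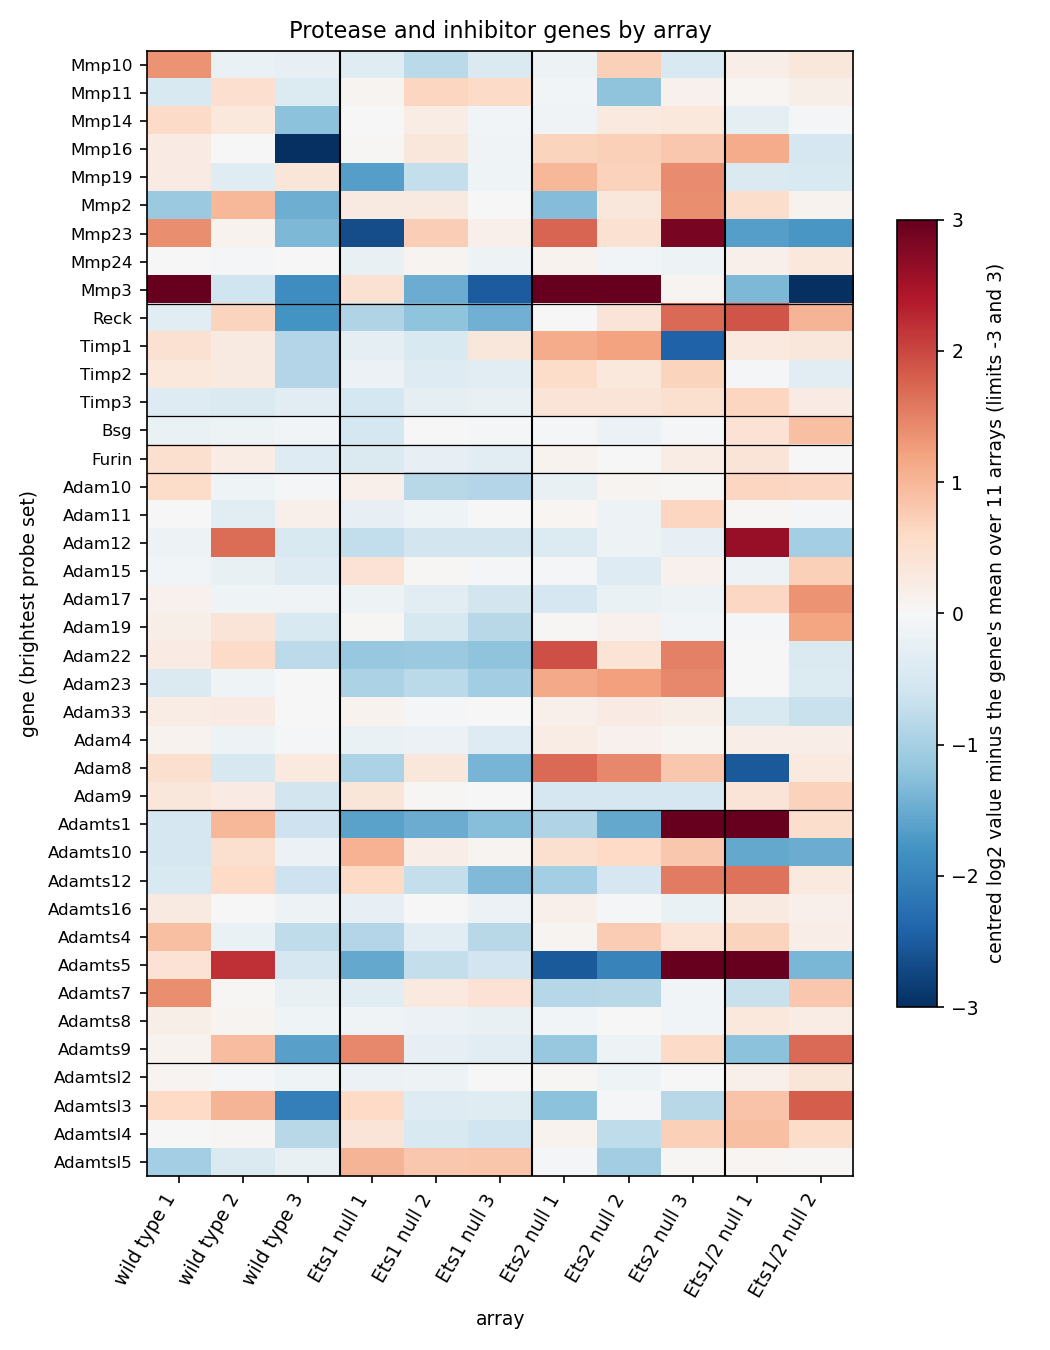
Colour shows the centred log2 value of each of the 40 genes (rows, by family) in each of the 11 arrays (columns, by group) minus the gene's mean over the arrays, with colours saturated at -3 and 3. Mmp3, Adamts1 and Adamts5 varied widely within groups, while Adam23 was higher in the 3 Ets2 null arrays than in the other 8.

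Among the MMP genes, the gelatinase gene Mmp2 read 1.57, 3.66 and 1.21 for wild type, 2.93, 2.95 and 2.67 for Ets1 null, 1.36, 3.0 and 4.06 for Ets2 null, and 3.21 and 2.77 for the arrays labelled Ets1/2 null. All other groups lay inside the wild-type range or overlapped it. Mmp14, which encodes a membrane-type MMP that activates the Mmp2 precursor, read 2.32, 2.08 and 0.52 for wild type, 1.76, 1.97 and 1.68 for Ets1 null, 1.65, 2.05 and 2.08 for Ets2 null, and 1.49 and 1.72 for the arrays labelled Ets1/2 null. Wild-type array 3 was the lowest of all 11. The same array was lowest for Mmp16, another membrane-type MMP gene, at -3.06 against 0.52 and 0.26 in the other wild-type arrays. Mmp16 read 0.29, 0.61 and 0.15 for Ets1 null, 0.93, 0.98 and 1.06 for Ets2 null, and 1.38 and -0.23 for the arrays labelled Ets1/2 null. None of these 3 genes was called in any comparison in its brightest probe set. The second probe set of Mmp14 was called lower in the arrays labelled Ets1/2 null against wild type (-3.80).

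The stromelysin gene Mmp3, whose product cuts many matrix proteins and activates other MMPs, spanned 6.75 over the arrays. It read 4.42, 0.49 and -0.77 for wild type, 1.55, -0.38 and -1.40 for Ets1 null, 4.40, 4.79 and 1.18 for Ets2 null, and -0.24 and -1.95 for the arrays labelled Ets1/2 null. Its 3 highest arrays were among the 4 with high Eif2s3y, and the part of sex in this was not tested. The lowest Ets2 null array lay above both arrays labelled Ets1/2 null, but the difference of -4.55 ± 1.61 missed the threshold (n = 2 and 3, limma adjusted p = 0.0606), while as deposited it was called (-5.26, adjusted p = 0.0235). Mmp10, the gene of a related stromelysin with which Mmp3 shares the AP-1 motif and the TATAAA box, had its highest value, -1.38, in wild-type array 1. The other 10 arrays lay between -3.54 and -2.02.

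In their brightest probe sets, Mmp19 and Mmp23 were the only MMP genes called in centred values, and only between the arrays labelled Ets1/2 null and Ets2 null. Mmp19, the gene of a secreted MMP, read -1.79, -2.41 and -1.67 for wild type, -3.68, -2.75 and -2.16 for Ets1 null, -1.04, -1.34 and -0.61 for Ets2 null, and -2.47 and -2.49 for the arrays labelled Ets1/2 null. The 3 Ets2 null arrays were the 3 highest. Mmp23, the gene of a membrane-anchored MMP, read 1.02, -0.27 and -1.73 for wild type, -3.04, 0.37 and -0.23 for Ets1 null, 1.37, 0.09 and 2.48 for Ets2 null, and -2.03 and -2.11 for the arrays labelled Ets1/2 null. Its 2 arrays labelled Ets1/2 null lay below all Ets2 null arrays and inside the range of Ets1 null. Mmp11, the stromelysin-3 gene, read -0.99, -0.03 and -0.95 for wild type, -0.44, 0.11 and 0.05 for Ets1 null, -0.61, -1.74 and -0.41 for Ets2 null, and -0.47 and -0.35 for the arrays labelled Ets1/2 null. Mmp24, a membrane-type MMP gene, stayed between -2.20 and -1.65 over all arrays. Neither was called in centred values, and as deposited Mmp24 was lower in the arrays labelled Ets1/2 null than in wild type (-0.47, limma adjusted p = 0.0255), Ets1 null (-0.42, adjusted p = 0.0381) and Ets2 null (-0.43, adjusted p = 0.0360). Over all genes 43.6%, 42.8% and 43.3% were called lower there as deposited, and centred Mmp24 had 0.25, 0.34 and 0.28.

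**Figure D2:**
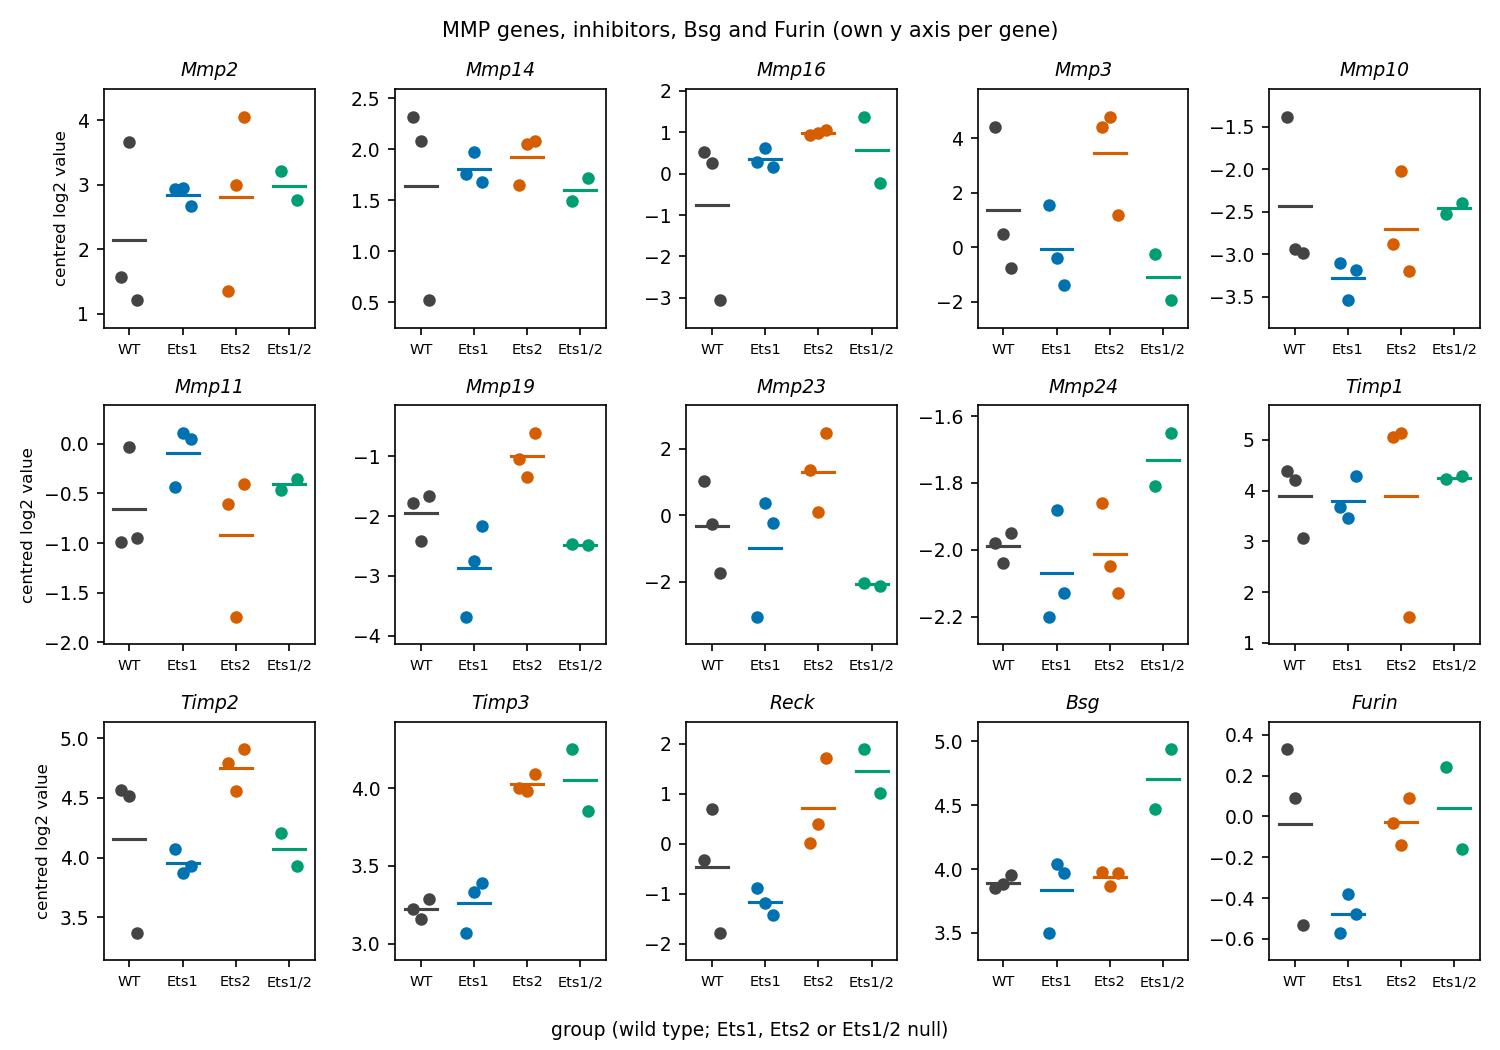
Points are arrays and bars are group means of the centred log2 value (y axis, own range per panel) for the 9 MMP genes, 4 inhibitor genes, Bsg and Furin in the 4 groups (x axis). Timp3 lay near 3.2 in wild type and Ets1 null and near 4 in both groups that had received Cre, and Bsg was highest in the 2 arrays labelled Ets1/2 null.

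Timp3, which encodes the matrix-bound inhibitor that also acts on Adam10 and Adam17, separated the groups by virus in its brightest and second probe sets after centring. The brightest read 3.22, 3.16 and 3.29 for wild type and 3.07, 3.33 and 3.39 for Ets1 null, against 4.00, 3.98 and 4.09 for Ets2 null and 4.25 and 3.85 for the arrays labelled Ets1/2 null. There, every array with Cre was above every array without it. In the other 2 probe sets the arrays labelled Ets1/2 null read 1.93 and 0.95, and 0.63 and -0.17, and did not share the high values of Ets2 null (2.92 to 3.05, and 2.23 to 2.5). The difference in Ets2 null of 0.80 ± 0.14 missed the threshold (n = 3 and 3, limma adjusted p = 0.0574). In Ets2 null against wild type all 4 probe sets of Timp3 had a positive difference, from 0.80 to 0.93, and in a fit over all probe sets the second was called (0.92, adjusted p = 0.0461).

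Timp1 read 4.39, 4.21 and 3.07 for wild type, 3.67, 3.47 and 4.28 for Ets1 null, and 4.23 and 4.28 for the arrays labelled Ets1/2 null. In Ets2 null it read 5.05, 5.14 and 1.52, so that array 3 held the lowest value of all and the other 2 the highest. Timp2, the inhibitor that also takes part in Mmp2 activation, read 4.57, 4.52 and 3.37 for wild type, 4.07, 3.87 and 3.93 for Ets1 null, 4.79, 4.56 and 4.91 for Ets2 null, and 4.21 and 3.93 for the arrays labelled Ets1/2 null. Neither gene was called in centred values of the brightest probe set. The fifth probe set of Timp2 was called lower in the arrays labelled Ets1/2 null against wild type (-5.72). As deposited Timp2 was lower in the arrays labelled Ets1/2 null than in Ets2 null (-1.39, limma adjusted p = 0.00584) and was called in the interaction (-1.24, adjusted p = 0.0495). Over all genes 43.3% and 30.1% were called lower there as deposited, and centred Timp2 had -0.68 and -0.49. Reck, the gene of a membrane-anchored inhibitor, read -0.33, 0.69 and -1.78 for wild type, -0.88, -1.19 and -1.42 for Ets1 null, 0.02, 0.39 and 1.71 for Ets2 null, and 1.89 and 1.02 for the arrays labelled Ets1/2 null. Its Ets1 null arrays lay below all 5 arrays that had received Cre, and wild type overlapped with both.

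Bsg read 3.85, 3.88 and 3.95 for wild type, 3.50, 4.04 and 3.97 for Ets1 null and 3.98, 3.87 and 3.97 for Ets2 null, and 4.47 and 4.94 for the arrays labelled Ets1/2 null. Furin read 0.33, 0.09 and -0.53 for wild type, -0.57, -0.38 and -0.48 for Ets1 null, -0.03, -0.14 and 0.09 for Ets2 null, and 0.24 and -0.16 for the arrays labelled Ets1/2 null. Wild type overlapped with every other group. Furin was not called in centred values, and as deposited it was lower in the arrays labelled Ets1/2 null than in wild type (-0.64, limma adjusted p = 0.0436) and Ets2 null (-0.64, adjusted p = 0.0446). Over all genes 43.6% and 43.3% were called lower there as deposited, and centred Furin had 0.08 and 0.07.

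In Ets1 null against wild type, no protease or inhibitor gene passed. Of the 40 genes 0 were called by limma, as 1 of all 11015 was (0.00908%), and 5 of 40 had an unadjusted p under 0.05, against 8.71% of all genes. With array weights, which lower the weight of noisy arrays, 1 was called (Adam23, lower). The median difference was -0.20 over the 40 genes and -0.03 over all genes, and 28 of the 40 were below 0. Adamtsl5, the gene of an ADAMTS-like protein without protease domain, had the highest difference at 1.44 ± 0.30 (adjusted p = 0.268). It measured -1.92, -1.33 and -1.11 for wild type and 0.12, -0.08 and -0.06 for Ets1 null. These groups did not overlap, and its second probe set had 1.28. Adamts5 had the lowest difference at -1.65, with adjusted p = 0.791. Adam23 and Adam22 encode ADAMs without protease activity that serve as adhesion proteins and receptors in the nervous system. In both, all 3 Ets1 null arrays lay below the wild-type arrays, with differences of -0.75 ± 0.17 (adjusted p = 0.278) and -1.17 ± 0.42 (adjusted p = 0.517), and neither passed. Adam22 read -2.76, -2.43 and -3.79 for wild type and -4.14, -4.12 and -4.22 for Ets1 null.

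In Ets2 null against wild type, Adam23 was higher and no other of the 40 genes passed. That is 1 of 40, where 0.436% of all genes were called and 0.236% as higher. These groups also differ in Cre, in floxed Ets2 alleles and in part in sex, and the Ets2 signal was not called lower. Adam23 read -3.56, -3.25 and -3.12 for wild type, -4.08, -3.94 and -4.16 for Ets1 null, -1.98, -1.89 and -1.69 for Ets2 null, and -3.12 and -3.54 for the arrays labelled Ets1/2 null. The 3 Ets2 null arrays stood above the other 8. The rise was 1.46 ± 0.17 (n = 3 and 3, limma adjusted p = 0.0230) and 1.44 in the values as deposited (adjusted p = 0.0272). It had a single probe set, with deposited values of 5.15 to 7.76. The call was lost in 7 of 19 alternatives, with adjusted p from 0.0566 to 0.1. These were without wild-type array 2 (1.49, adjusted p = 0.0566), without Ets2 null array 1 (1.52, 0.1), array 2 (1.48, 0.0732) or array 3 (1.38, 0.0575), with only the groups compared, with a replicate block, and with a term for arrays with high Eif2s3y (1.71, 0.0607).

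Other differences in Ets2 null did not pass. Mmp3 had the highest, at 2.08 (adjusted p = 0.461), and Adamts5 the lowest, at -1.20 (adjusted p = 0.725). Mmp19 had 0.96 ± 0.37 (adjusted p = 0.212), and its Ets2 null arrays did not overlap with wild type. Adam8, the gene of a protease known from leukocytes, read 0.68, -0.27 and 0.49 for wild type and 1.90, 1.63 and 1.01 for Ets2 null (adjusted p = 0.372). The median over the 40 genes was 0.15 and that over all genes -0.01.

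**Figure D3:**
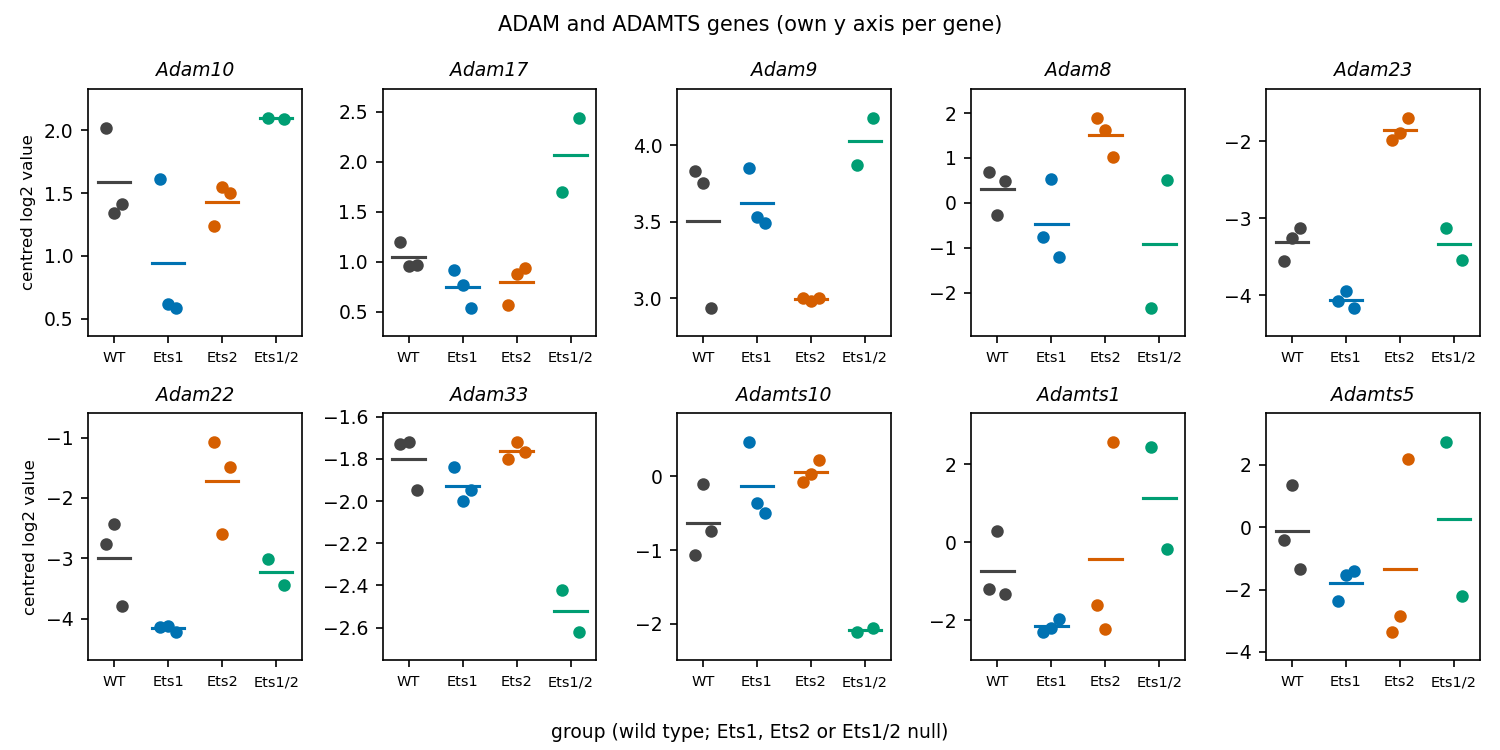
Points are arrays and bars are group means of the centred log2 value (y axis, own range per gene) for 10 ADAM and ADAMTS genes in the 4 groups (x axis). Adamts10 and Adam33 were lowest in the 2 arrays labelled Ets1/2 null, Adam23 was highest in Ets2 null, and Adamts1 and Adamts5 were high in single arrays of several groups.

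In the arrays labelled Ets1/2 null, Adamts10 and Adam33 fell against wild type and 3 genes, Adam17, Bsg and Timp3, rose after centring. Of the 40 genes, 3 were higher (16.4% of all genes) and 2 lower (12%), so 12.5% of them were called against 28.3% of all genes. Every comparison of this group rests on the same 2 arrays, so the calls in them are not independent. Reck had the highest difference of the 40, 1.92 ± 0.70, and missed the threshold (adjusted p = 0.0680). Adamts10, whose product binds fibrillin in microfibrils, read -1.07, -0.10 and -0.74 for wild type, 0.47, -0.36 and -0.49 for Ets1 null, -0.08, 0.03 and 0.23 for Ets2 null, and -2.11 and -2.06 for the arrays labelled Ets1/2 null. These 2 arrays lay below the other 9. The fall was -1.45 ± 0.33 against wild type (n = 2 and 3, limma adjusted p = 0.0119), -1.96 ± 0.33 against Ets1 null (adjusted p = 0.00356) and -2.14 ± 0.33 against Ets2 null (adjusted p = 0.00211). It was also called in the deposited values, and against the single nulls it held in all 20 alternatives. Against wild type it missed the threshold without Ets1/2 null array 1 (-1.42, adjusted p = 0.0529) or array 2 (-1.47, adjusted p = 0.0555). The second probe set of Adamts10 went the same way by less, -0.30 against wild type (adjusted p = 0.350), and was not called.

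Adam33, whose product is known from mesenchymal cells, read -1.73, -1.72 and -1.95 for wild type, -1.84, -2.00 and -1.95 for Ets1 null, -1.80, -1.72 and -1.77 for Ets2 null, and -2.42 and -2.62 for the arrays labelled Ets1/2 null. The 2 lowest values of the 11 were thus the 2 labelled Ets1/2 null. The fall was -0.72 ± 0.13 against wild type (adjusted p = 0.00478), -0.59 ± 0.13 against Ets1 null (adjusted p = 0.0112) and -0.76 ± 0.13 against Ets2 null (adjusted p = 0.00368). It had a single probe set, and its deposited values there were 6.31 and 6.07. The call was lost against wild type with only those groups in the fit (adjusted p = 0.0637), and against Ets1 null without Ets1/2 null array 2 (-0.49, adjusted p = 0.0648). Compared with Ets2 null it was lost with a term for high Eif2s3y (adjusted p = 0.161).

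The rises depended on the probe set and on where 0 was placed. Adam17, also named TACE, the sheddase of TNF and of EGF receptor ligands, read 1.20, 0.96 and 0.97 for wild type, 0.92, 0.77 and 0.54 for Ets1 null, 0.57, 0.88 and 0.94 for Ets2 null, and 1.70 and 2.44 for the arrays labelled Ets1/2 null. In the brightest probe set it rose by 1.03 ± 0.23 against wild type (adjusted p = 0.0112), 1.33 ± 0.23 against Ets1 null (adjusted p = 0.00407) and 1.27 ± 0.23 against Ets2 null (adjusted p = 0.00444). The second probe set had -0.52 against wild type and the third had -3.38, which was called (adjusted p = 9.05e-05). The mean of the 3 probe sets fell by 0.90 (adjusted p = 0.0244), so the direction of Adam17 was not settled. Without Ets1/2 null array 2 the brightest probe set had 0.66 against wild type (adjusted p = 0.0763). Adam17 was lost in 4 of 20 alternatives against wild type, with adjusted p from 0.0244, where the direction turned, to 0.281 as deposited.

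Timp3 rose by 0.83 ± 0.16 against wild type (adjusted p = 0.00570) and 0.79 ± 0.16 against Ets1 null (adjusted p = 0.00734), and had 0.03 against Ets2 null (adjusted p = 0.909). Its second probe set rose by 1.35 against wild type, the third had -0.63 and the fourth fell by 1.19 (adjusted p = 0.00612), and as deposited the brightest had 0.11 (adjusted p = 0.634). Bsg, with a single probe set, rose by 0.81 ± 0.20 against wild type (adjusted p = 0.0149), 0.86 ± 0.20 against Ets1 null (adjusted p = 0.0117) and 0.77 ± 0.20 against Ets2 null (adjusted p = 0.0181). Both arrays lay above the other 9. As deposited Bsg had 0.09, 0.10 and 0.06, and with quantile normalization 0.50, 0.48 and 0.45, none of them called. Without Ets1/2 null array 2 it had 0.57 (adjusted p = 0.108), 0.63 (0.0784) and 0.53 (0.123), and without Ets2 null array 2 it had 0.73 against Ets2 null (0.0538). Leaving out Ets1/2 null array 2 also lowered the number of the 40 genes called against wild type. The share of all genes called in that fit is not given here.

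As deposited, 10 of the 40 genes were lower against wild type and 0 higher, where 43.6% of all genes were called lower and 2.32% higher. Adamts10 and Adam33 were the only ones called the same way in centred and deposited values (14.3% of all genes were). Of the 16 genes with several probe sets, 6 had a probe set that was called against the direction of the brightest: Adam10, Adam15, Adam17, Adam19, Adamtsl5 and Timp3. The brightest was itself called in 2 of them, Adam17 and Timp3. The share of such genes among all genes with several probe sets was not computed, so the count cannot be read as particular to these genes. In Ets1 null or Ets2 null against wild type there were 0 such genes, where only 0.00908% and 0.436% of all genes were called. Mmp14 and Timp2, flat in their brightest probe sets (-0.04 and -0.08), had another that was called at -3.80 and -5.72. None of the 16 had every probe set called the same way (8.05% of all genes with several probe sets did, and 19.6% of all genes).

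**Figure D4:**
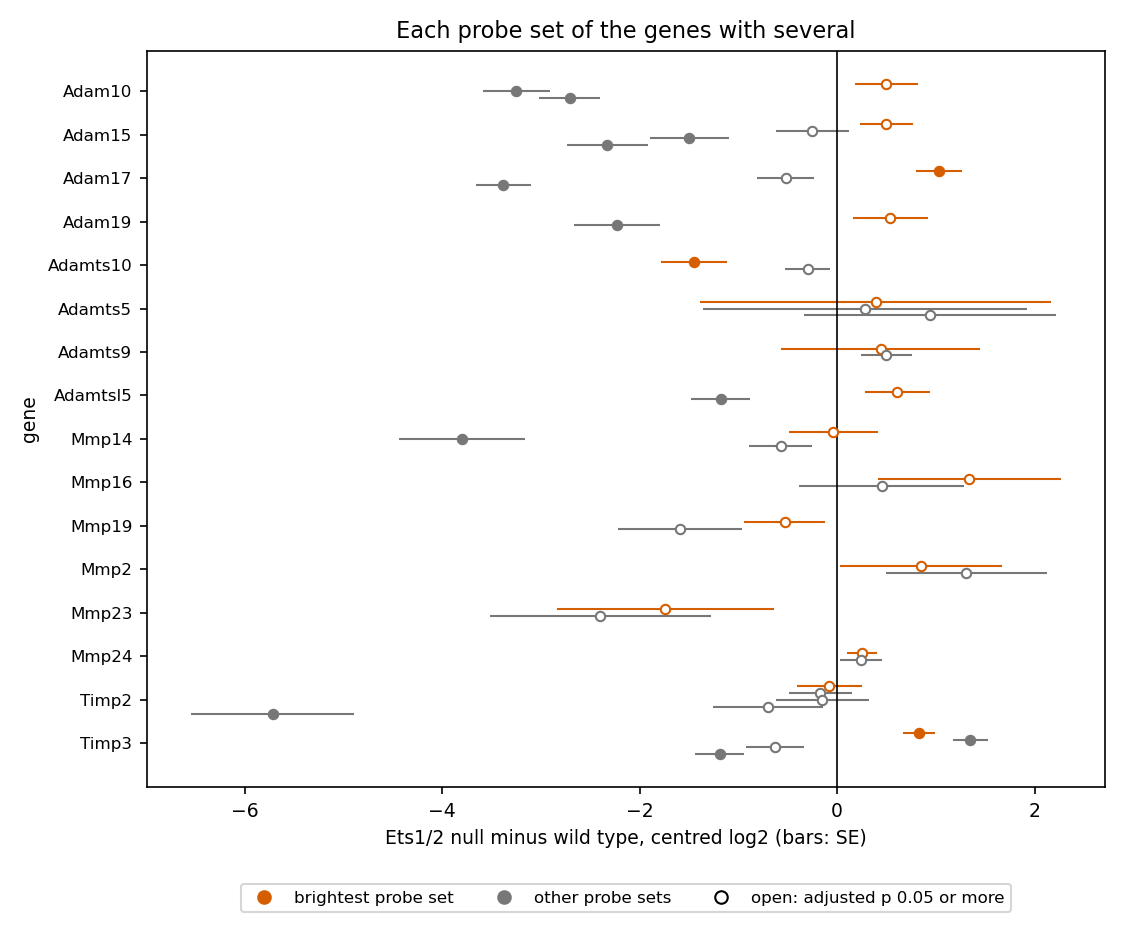
Each point is the difference of 1 probe set between the arrays labelled Ets1/2 null and wild type (x axis, centred log2; bars are SE) for the 16 genes with several probe sets (y axis); orange is the brightest and open points were not called. Adam10, Adam17, Mmp14 and Timp2 each have a grey point at -2.71 or lower, while their brightest probe sets lie between -0.08 and 1.03.

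By its labels, the comparison with Ets1 null differs in Ets2 and Cre, although the Ets1 signal was higher in the arrays labelled Ets1/2 null and Ets2 was not lower. Of the 40 genes 8 were higher and 2 lower, against 17.4% and 11.3% of all genes (10 of 40 against 28.7% in either direction). Beside Adam17, Timp3, Bsg, Adamts10 and Adam33, Reck rose by 2.61 ± 0.70 (adjusted p = 0.0224), from -0.88, -1.19 and -1.42 to 1.89 and 1.02. Its call was lost as deposited (1.85, adjusted p = 0.0556) and without Ets1 null array 2 (2.60, 0.0576), Ets1 null array 3 (2.48, 0.0665) or Ets1/2 null array 1 (2.18, 0.125). Adam10, the main sheddase of Notch receptors and of VE-cadherin, read 1.61, 0.62 and 0.59 for Ets1 null and 2.10 and 2.09 for the arrays labelled Ets1/2 null, a rise of 1.15 ± 0.32 (adjusted p = 0.0266) in the brightest probe set. Its other 2 probe sets fell by 2.54 and 2.20, both called, and the mean of the 3 fell by 1.13 (adjusted p = 0.0216), so here too the direction was not settled. The brightest probe set was not called without Ets1 null array 2 (0.99, adjusted p = 0.0818), Ets1 null array 3 (0.97, 0.0832), Ets1/2 null array 1 (1.15, 0.0966) or array 2 (1.16, 0.0936).

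Adam4, the gene of a testis ADAM, read -1.89, -1.87 and -2.06 for Ets1 null and -1.49 and -1.48 for the arrays labelled Ets1/2 null, with wild type at -1.58, -1.84 and -1.71. Adamts8 read -2.71, -2.77 and -2.81 for Ets1 null and -2.27 and -2.36 for the arrays labelled Ets1/2 null, with wild type at -2.42, -2.51 and -2.72. The rises of Adam23 (0.73 ± 0.19, adjusted p = 0.0195), Adam4 (0.46 ± 0.13, adjusted p = 0.0298) and Adamts8 (0.45 ± 0.13, adjusted p = 0.0290) turned to -0.03, -0.31 and -0.31 as deposited. Adam23 was not called without Ets1 null array 3 (0.68, adjusted p = 0.0629) or Ets1/2 null array 1 (0.52, 0.125). Adam4 and Adamts8 lost their calls when any of the 5 arrays compared was left out, with differences of 0.40 to 0.49 (adjusted p from 0.0532 to 0.096) and 0.41 to 0.50 (adjusted p from 0.0501 to 0.116). The count of 10 fell to 5 when Ets1 null array 3 was left out, and to 6 when Ets1 null array 2 or either array labelled Ets1/2 null was. As deposited, 5 genes were called, all lower, against 44.5% of all genes in either direction and 42.8% lower, and Adamts10 and Adam33 were the 2 called the same way both times (13.0% of all genes). Of the 16 genes with several probe sets, 0 had every one called the same way (7.27% of all such genes did).

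By its labels, the comparison with Ets2 null differs in Ets1, although the signals of Ets1 and Ets2 were both higher in the arrays labelled Ets1/2 null. Here 7 of the 40 genes were lower and 3 higher, against 13.2% and 17.1% of all genes (10 of 40 against 30.3%). Adam23 fell by 1.48 ± 0.19 (adjusted p = 0.000866), in all 19 alternatives. Mmp19 fell by 1.48 ± 0.41 (adjusted p = 0.0256) and Mmp23 had -3.38 ± 1.11 (adjusted p = 0.0457), and for each both probe sets were called. Among the 4785 genes with several probe sets, 9.34% had every one called the same way. Adam22 fell by 1.51 ± 0.47 (adjusted p = 0.0393), from -1.07, -2.59 and -1.49 to -3.01 and -3.45, and Adam8 fell by 2.43 ± 0.78 (adjusted p = 0.0429), from 1.90, 1.63 and 1.01 to -2.33 and 0.50. All 7 lower genes, Adam33 and Adamts10 among them, were also called lower as deposited, where 17 of the 40 were lower and 0 higher. Of all genes, 46.3% were called as deposited, 43.3% as lower, and 16.2% were called the same way both times.

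Adam8 rested on unequal arrays: without Ets1/2 null array 1 it had -1.01 (adjusted p = 0.305) and without array 2 it had -3.85. It was also lost without each other array but Ets1 null array 2, with adjusted p from 0.0502 to 0.108. Mmp19 was not called without Ets2 null array 1 (-1.51, adjusted p = 0.0583), Ets2 null array 3 (-1.29, 0.0611) or Ets1/2 null array 1 (-1.50, 0.0892) or 2 (-1.47, 0.0978). Mmp23 was not called without wild-type array 2 (-3.38, adjusted p = 0.063), Ets1 null array 3 (-3.38, 0.0594), Ets2 null array 1 (-3.36, 0.0965) or 3 (-2.80, 0.107), or Ets1/2 null array 1 (-3.43, 0.136) or 2 (-3.34, 0.147). Adam22 was not called without wild-type array 1 or any Ets1 null array (each -1.51), Ets2 null array 1 (-1.19) or 3 (-1.40), or Ets1/2 null array 1 (-1.73) or 2 (-1.29), with adjusted p from 0.0522 to 0.177. The count of 10 was 6 without Ets2 null array 1, and it also fell without either array labelled Ets1/2 null. The share of all genes called in these fits is not given here.

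With a term for arrays with high Eif2s3y, 2 of these 10 genes were called against Ets2 null (Adam23 and Adamts10), and Mmp23 had -1.36 (adjusted p = 0.696). The share of all genes called with that term is not given here, so the loss cannot be read as particular to these genes. All Ets2 null arrays were high and both arrays labelled Ets1/2 null low, so sex and group cannot be told apart within this comparison. Adam9, the gene of a widely expressed sheddase, rose by 1.03 ± 0.26 (adjusted p = 0.0167), from 3.0, 2.98 and 3.0 to 3.87 and 4.18. It was not called as deposited (0.33, adjusted p = 0.287) or without Ets1/2 null array 2 (0.88, adjusted p = 0.0991).

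The interaction is the difference between the arrays labelled Ets1/2 null and Ets1 null, minus that between Ets2 null and wild type. It was called for Adamts10 (-2.66 ± 0.44, adjusted p = 0.00690), Adam33 (-0.63 ± 0.18, adjusted p = 0.0448) and Adam17 (1.57 ± 0.31, adjusted p = 0.0132). That is 3 of 40, against 14.5% of all genes. As deposited, 6 were called, all lower, against 31.6% of all genes. Adamts10 had 0.70 in Ets2 null against wild type and -1.96 in the arrays labelled Ets1/2 null against Ets1 null, and its call held in all 19 alternatives. For Adam33 it was lost without each of the 11 arrays in turn (-0.73 to -0.53, adjusted p from 0.0549 to 0.11). For Adam17 the mean of probe sets had -0.42 (adjusted p = 0.413). Without wild-type array 3 the count was 5, and the share of all genes called in that fit is not given here.

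The ADAMTS genes that varied most did so between arrays of the same group. Adamts1 and Adamts5, which encode proteases of versican and aggrecan, are neighbours on chromosome 16 with no protein-coding gene between them. Adamts1 read -1.19, 0.29 and -1.33 for wild type, -2.30, -2.19 and -1.97 for Ets1 null, -1.61, -2.23 and 2.58 for Ets2 null, and 2.46 and -0.18 for the arrays labelled Ets1/2 null. Adamts5 read -0.41, 1.35 and -1.33, then -2.37, -1.54 and -1.42, then -3.36, -2.84 and 2.20, and 2.74 and -2.21 in the same order of groups. In both genes Ets2 null array 3, Ets1/2 null array 1 and wild-type array 2 were the highest of their groups, and all 3 probe sets of Adamts5 put the same arrays first. Adamts12 had the same 3 arrays highest in their groups, at 0.04, 0.11 and -0.92. Adamts9 did so for wild type and Ets2 null, but was higher in Ets1/2 null array 2 (0.74) than in array 1 (-2.19). None of these genes was called in any comparison. In the arrays labelled Ets1/2 null, Adamts1 had the highest difference to wild type among the ADAM and ADAMTS genes, 1.89 ± 1.32 (adjusted p = 0.315). Beside this, the smooth muscle and pericyte markers (9 of 14 on the table) had medians of 0.28, -0.11 and 0.83 in Ets2 null array 3, Ets1/2 null array 1 and wild-type array 2. In the others the medians were -1.14 to 0.90. The summed level of these markers, as log2 of the sum of centred linear values, was 5.10, 5.83 and 4.57 against 3.32 to 4.72. The highest marker was Rgs5 (4.48) in the first of these arrays, where Acta2 read -0.33 and Tagln -1.89, and Acta2 (5.31 and 3.27) in the others. The part of these markers was not tested.

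In their brightest probe sets, the remaining genes moved little or with wide spread. Adam15 and Adam19, sheddase genes, lay between 0.90 and 2.00 and between 1.10 and 3.12, Adam11 between -2.93 and -1.95, and Adam12 between -3.62 and 0.00. Adamts4, an aggrecanase gene, Adamts7, Adamts9 and Adamts16 spanned 1.76, 2.26, 3.32 and 0.53 on the log2 scale. Of the ADAMTS-like genes, Adamtsl3 spanned 3.85, with wild-type array 3 lowest at -1.02, Adamtsl4 1.76 and Adamtsl2 0.52. None of these was called in centred values. As deposited, Adam11, Adamts16 and Adamtsl2 were lower in the arrays labelled Ets1/2 null than in Ets2 null (43.3% of all genes were). Adamts16 and Adamtsl2 were also lower against wild type (43.6% of all genes were), and Adamtsl2 against Ets1 null (42.8% were).

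Genes that work with these proteases were read from 3 lists. Of 30 ADAM partners and shed substrates on the table (of 40 listed), 0 were called in either single null, and in the arrays labelled Ets1/2 null 1 was higher and 3 lower against wild type. Over all genes 16.4% were higher and 12% lower. Notch1, a receptor that Adam10 and Adam17 cut, fell by 1.33 ± 0.20 against wild type (adjusted p = 0.00228) and 2.28 ± 0.20 against Ets2 null (adjusted p = 0.000175), with both probe sets lower. Frmd8, which stabilises the Adam17 complex, fell by 0.89 ± 0.26 (adjusted p = 0.0327), and Tspan17, a tetraspanin that associates with Adam10, by 1.15 ± 0.32 (adjusted p = 0.0284). The higher gene was Cd44 (0.72, adjusted p = 0.0444), of whose 3 probe sets 1 went the other way and which had 0.00 as deposited (adjusted p = 0.996). Against Ets2 null, Rhbdf1, which carries Adam17 to the surface, fell by 0.94 ± 0.21 (adjusted p = 0.0110) and the cadherin gene Cdh2 rose by 2.40 ± 0.60 (adjusted p = 0.0169).

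Of 21 matrix substrates on the table (of 24), 0 were called in either single null. In the arrays labelled Ets1/2 null 3 were higher and 0 lower against wild type, against 16.4% and 12% of all genes, with a median of 0.71 against 0.11 over all genes. These were the aggrecan gene Acan (2.04 ± 0.40, adjusted p = 0.00599), the fibronectin gene Fn1 (0.74 ± 0.15, adjusted p = 0.00679; 0.02 as deposited) and the elastin gene Eln (3.02 ± 0.96, adjusted p = 0.0442), of which a second probe set had -1.07 and which was not called as deposited (2.30, adjusted p = 0.0774). Against Ets2 null 5 were higher and 0 lower (17.1% and 13.2% of all genes), among them Col1a1 (3.43 ± 0.60, adjusted p = 0.00377). Of 17 other genes of pericellular proteolysis (of 32), 0 were called in any comparison with wild type in centred values. As deposited, 5 (Serpinf2, Bmp1, Lrp1, Spock2 and Ctsl) were lower in the arrays labelled Ets1/2 null than in wild type, with differences from -1.49 to -0.42. Over all genes 43.6% were called lower there as deposited. Centred, the 5 had -0.07, -0.49, -0.77, 0.30 and 0.03 in that order. Against Ets2 null, the procollagen C-proteinase gene Bmp1 fell by 1.31 ± 0.35 (adjusted p = 0.0223), the gene of the clearance receptor Lrp1 by 1.35 ± 0.32 (adjusted p = 0.0128), and the cathepsin gene Ctsl rose by 0.88 ± 0.26 (adjusted p = 0.0295; as deposited 0.18, adjusted p = 0.601).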

How the data were processed

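Log2 values, 1 per probe set, were deposited, and the submitters' processing notes name RMA. Its version and any probe set filter were not given in the sources used here. Of 20523 probe sets, 18824 carried 1 symbol in the platform annotation, 549 several and 1150 none. The 40 genes had 67 probe sets, and 4 more that pair such a symbol with another gene were left out. The brightest probe set over 11 arrays stood for each gene. From each array its median over genes was subtracted. A model with group means was then fitted to all 11015 genes with limma 3.58.1 (R 4.3.3; lmFit, eBayes, two-sided, 7 residual degrees of freedom). Members and lists were chosen with earlier results of these data known. The rule for named genes gave called members, MMPs, inhibitors, Bsg and Furin in full, and the other members by range, except the highest and lowest differences to wild type. The fit was tested on simulated data. pandas 2.3.3 and matplotlib 3.10.9 made tables and plots. Alternatives changed the centring, normalization, probe sets, filter, arrays, weights and covariates. Same-numbered arrays deviated together (r over 0.1) in 1 of 15 pairs. Deviations from the group mean cancel within each small group, so these correlations cannot decide whether the arrays were paired. The main fit did not pair them.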

Additional observations from a re-analysis of the deposited data

Results flagged for a closer look

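A tested interaction was called for 3 of the 40 genes (7.5%), against 14.5% of all genes. It is the difference between the arrays labelled Ets1/2 null and Ets1 null, minus that between Ets2 null and wild type. Adamts10 had -2.66 ± 0.44 (limma adjusted p = 0.00690), from 0.70 in Ets2 null to -1.96 in the arrays labelled Ets1/2 null, and was called in all 19 alternatives. Adam17 had 1.57 ± 0.31 (adjusted p = 0.0132), from -0.24 to 1.33, in its brightest probe set, while the mean of its probe sets had -0.42 (adjusted p = 0.413). Adam33 had -0.63 ± 0.18 (adjusted p = 0.0448), from 0.04 to -0.59, and its call was lost in 14 of 18 alternatives, among them leaving out any of the 11 arrays. All 3 rest on the 2 arrays labelled Ets1/2 null, whose Ets1 signal (1.29 and 1.60) lay above wild type and whose Ets2 signal (2.28 and 0.94) was not below it.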

How the results depend on the processing

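The number of the 40 genes called was 0 in Ets1 null, 1 in Ets2 null and 5 in the arrays labelled Ets1/2 null, each against wild type, 10 in the latter against Ets1 null, 10 against Ets2 null, and 3 in the interaction. As deposited, the arrays labelled Ets1/2 null gave 10, 5 and 17 against wild type, Ets1 null and Ets2 null, all lower, and the interaction gave 6, all lower. Quantile normalization gave 3 against wild type (1 higher, 2 lower) and 4 against Ets1 null. Requiring every probe set to be called the same way, an alternative chosen after seeing the data, gave 2, 6 and 1 against wild type, against Ets1 null and in the interaction. Over all genes 19.6%, 19.4% and 10.1% were called that way, in the same order. The mean of probe sets gave 5 in the interaction. It turned Adam17 to -0.90, -0.67 and -0.64 against wild type, Ets1 null and Ets2 null and to -0.42 in the interaction, Adam10 to -1.13 and Timp3 to -0.06 against Ets1 null. The deposited values turned Adam23, Adam4 and Adamts8 to -0.03, -0.31 and -0.31 against Ets1 null. Without dim genes, 25 of the 40 were tested, and 0 were called in Ets2 null, 6 against Ets1 null and 6 against Ets2 null. With only the groups compared, 0 were called in Ets2 null and 1 in Ets1/2 null against wild type. A term for high Eif2s3y gave 0 in Ets2 null and 2 for Ets1/2 null against Ets2 null. Array weights gave 1 in Ets1 null, 3 in Ets2 null and 6 in the interaction. With all 12 columns, which counts the mean of 2 arrays as another array, there were 2 in Ets2 null, 16 against Ets1 null and 7 in the interaction. The replicate block gave 0 in Ets2 null against 1 without it, Adam23 having 1.46 in both (adjusted p = 0.0684 with it), and stayed within 1.5 times elsewhere. Same-numbered arrays had r from -0.325 to 0.104. Leaving out each array in turn gave 0 to 0 and 0 to 1 in the single nulls, 3 to 6, 5 to 12 and 6 to 13 for Ets1/2 null against wild type, Ets1 null and Ets2 null, and 2 to 5 in the interaction. With 1 array labelled Ets1/2 null left, that array is assumed to vary like the other groups. For the other normalizations, filters, weights, covariates and sets of arrays, the share of all genes called is not given here. Those counts thus do not show whether the 40 genes changed more than all genes did. The causes of these changes were not tested. Weak signal limits the called genes Adam22, Adam23, Adam33, Adam4 and Adamts8, and Mmp10, whose deposited values never passed 8.34.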
